A study of Homo sapiens with 9 samples.

Results

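The transcription factors and cofactors that define subtypes of T cell acute lymphoblastic leukemia (T-ALL) were followed in ALL-SIL cells, a human T-ALL cell line, with and without knockdown of the plant homeodomain protein PHF6. All probes annotated to TLX1, TLX3, TAL1, TAL2, LMO1, LMO2, LYL1, HOXA9, HOXA10 and MEF2C were taken, which gave 12 probes for these 10 genes, of 57176 non-control probes and 19722 named genes on the array. HOXA9 and HOXA10 had 2 probes each and every other gene had 1. Of the 12 probes, 6 passed the filter on low signal, along with 33586 of all probes, and these 6 stood for TLX1, TAL2, LMO1, LYL1, HOXA9 and HOXA10.

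ALL-SIL cells were electroporated with a control siRNA, with PHF6 siRNA1 or with PHF6 siRNA2 and harvested after 96 h according to most sample labels, whereas 1 free-text field gave 72 h. Total RNA of 3 replicates per group was hybridised to 9 one-colour arrays. The study used an unrelated non-targeting siRNA as control and 2 PHF6 reagents, a single siRNA and a pool, but the labels did not say which was siRNA1. All samples came from 1 cell line. The study's methods call the replicates independent samples and do not say whether they were separate cultures, so p-values measure the spread between these samples.

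In T-ALL, aberrant expression of one of these factors in immature thymocytes marks a subtype, and most patients express only one group of them. TLX1 and TLX3 are homeobox factors, TAL1, TAL2 and LYL1 are basic helix-loop-helix factors that bind DNA with E proteins, and LMO1 and LMO2 are LIM-only adaptors that join such dimers to GATA and LDB1 proteins. HOXA9 and HOXA10 mark the HOXA subtype, and MEF2C and LYL1 are high in leukemia resembling early T cell precursors. ALL-SIL is known to carry a translocation that places TLX1 under a T cell receptor locus and is classed as a TLX1 line.

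The upstream sequences of 2 members are given because TLX1 is the subtype gene of the line and LYL1 had the most negative difference among the tested members. The windows hold the 250 bases before the RefSeq transcription start, 5′ to 3′ on the coding strand, in build GRCh38.p14. The TLX1 window is chr10:101131050-101131299 on the plus strand and the LYL1 window is chr19:13102859-13103108 on the minus strand.
TLX1: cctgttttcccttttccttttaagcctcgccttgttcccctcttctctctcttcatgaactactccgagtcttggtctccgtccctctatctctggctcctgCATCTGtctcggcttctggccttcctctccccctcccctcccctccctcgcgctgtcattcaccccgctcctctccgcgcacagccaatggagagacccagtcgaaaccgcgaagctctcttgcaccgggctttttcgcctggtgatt
LYL1: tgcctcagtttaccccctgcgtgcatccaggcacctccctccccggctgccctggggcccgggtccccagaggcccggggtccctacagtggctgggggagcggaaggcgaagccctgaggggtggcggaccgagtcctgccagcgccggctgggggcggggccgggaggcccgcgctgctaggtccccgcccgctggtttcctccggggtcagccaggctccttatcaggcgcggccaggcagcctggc
Capitals mark the E box CANNTG, the motif of basic helix-loop-helix dimers, which occurred 1 time in the TLX1 window and 0 times in the LYL1 window. A GATA motif, AGATAA, and an ETS motif, CCGGAA, occurred 0 times in both. Both strands were searched for these exact letters only, so other forms of the GATA and ETS motifs were not counted. No motif matches overlapped in these windows. Among 35116 promoter windows of the same length, 61.8% held the E box, 9.2% the GATA motif and 14.5% the ETS motif. The GC content was 58.0% for TLX1 and 75.2% for LYL1, against a median of 58.0% over all windows. The arrays measured RNA and not binding at these windows.

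The arrays were alike in overall signal. Between 51.9% and 59.0% of probes were well above background on an array, and no spot was saturated. The 308 negative-control spots had a median signal between 23 and 27.5. Every T lymphoblast marker examined, 17 of 17, gave signal well above background on each array. With the replicate number as a block, 2 of these were called lower with limma, the surface antigen CD7 (-0.76, adjusted p = 0.0124) and PTCRA, the pre-T cell receptor alpha chain (-0.73, adjusted p = 0.00837). The block called 2.37% of all genes. Of the 17 markers 11 had a negative difference, while CD1A (0.71) and RAG1 (0.69) were higher by a similar size and were not called. Without the block 0 of 17 were called. The erythroid markers HBB and GATA1, the B cell markers CD22 and BLK, and the progenitor gene GATA2 were well above background on 0 arrays. Other markers of these cell types did give signal, with 4 of 7 erythroid, 3 of 6 B cell, 3 of 6 monocyte, 3 of 5 endothelial and 1 of 4 stem and progenitor genes passing the filter. None of these was called in either fit, and their part in the results was not tested.

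The knockdown was seen first in PHF6 itself. PHF6 had normalized log2 values of 11.07, 11.17 and 10.86 with control siRNA, 9.39, 9.69 and 9.12 with siRNA1, and 9.20, 9.27 and 9.14 with siRNA2. All 6 siRNA arrays lay below the control of the same replicate number. PHF6 fell by 1.63 on the log2 scale with siRNA1 and fell by 1.83 with siRNA2. For both siRNAs together the log2 difference was -1.73 (SE 0.14, limma adjusted p = 0.00242), or 30.1% of the control.

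Of the 10 genes, 4 had no probe that passed the filter. TLX3, the homeobox paralog of TLX1, was well above background on 0 of 9 arrays, with signals from 23 to 33. Its signal was 1 to 1.27 times the median of the negative controls and exceeded their 95th percentile on 0 arrays. TAL1, the founding factor of the TAL/LMO subtype, was well above background on 0 of 9 arrays, with signals from 26 to 35. It exceeded the 95th percentile of the negative controls on 7 arrays, by a small margin, at 1.13 to 1.4 times their median.

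LMO2, the adaptor of the TAL1 complex, was printed 15 times on each array, so that it was the most densely sampled member. Only 8 of its 135 spots were well above background, and its averaged signal lay between 27.9 and 34.6. This averaged signal exceeded the 95th percentile of the negative controls on 3 arrays, at 1.07 to 1.44 times their median. That percentile is over single spots, so the count for an average of 15 spots cannot be set beside those of the other members. MEF2C, a MADS box factor, was well above background on 1 of 9 arrays, control replicate 2. Its signals ran from 26.5 to 41 and exceeded the 95th percentile of the negative controls on 9 arrays, at 1.15 to 1.54 times their median. No fold change is given for these 4 genes, since their probes counted as well above background on 0 or 1 of 9 arrays.

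TLX1 stood clearly above the background in every sample. Its signal was 2400 to 2740 with control siRNA, 1790 to 2500 with siRNA1 and 1960 to 2550 with siRNA2, or 71.6 to 111 times the negative-control median of the same array. LYL1 had signals of 316 to 442 with control siRNA, which was 12.7 to 18.8 times the negative-control median. LYL1 was thus detected in control cells in which TAL1 and LMO2, whose protein products act in the same kind of complex, did not reach the scanner's flag for well above background on any array. TAL2, with signals from 71 to 91, and LMO1, with signals from 44.5 to 59, were well above background on all 9 arrays but close to it, at 2.84 to 3.91 and 1.76 to 2.27 times the negative-control median.

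HOXA9 and HOXA10 each gave a bright and a dim probe. The bright HOXA9 probe (A_33_P3416231) had signals of 493 to 966, whereas the other (A_23_P500998) was well above background on 1 array, control replicate 3, at 83. On the other 8 arrays the dim HOXA9 probe lay between 25 and 35. The bright HOXA10 probe (A_33_P3288649) had signals of 7470 to 17400, at 299 to 736 times the negative-control median. The second HOXA10 probe (A_24_P77904) was well above background on 0 of 9 arrays, with signals from 24 to 36.5. Both probes of each gene carried the same transcript name, so the disagreement within a gene is not settled by the annotation. The values below are those of the bright probes.

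**Figure D1:**
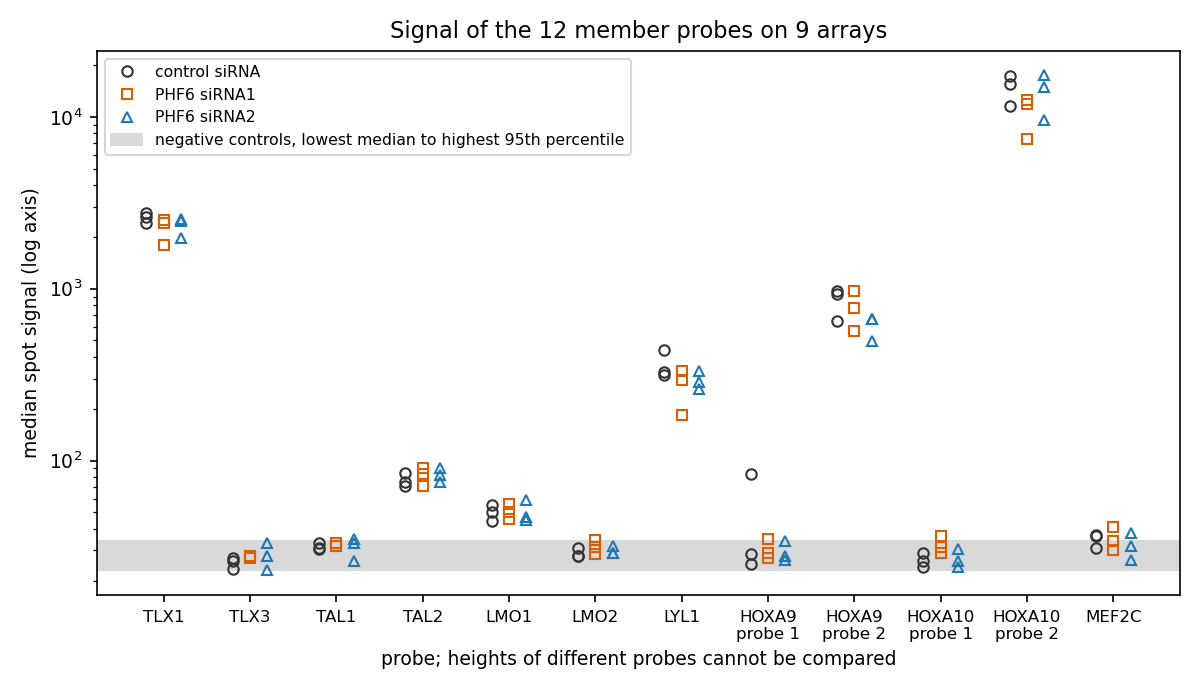
Median spot signal (log axis) of the 12 member probes on each of the 9 arrays, by group, over a grey band from the lowest negative-control median to the highest negative-control 95th percentile. TLX1, LYL1 and the second-drawn probes of HOXA9 and HOXA10 lie far above the band in all groups, TAL2 and LMO1 just above it, and TLX3, TAL1, LMO2 and the first-drawn HOXA10 probe lie within or at its edge.

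No member probe was called at an adjusted p under 0.05 between PHF6 siRNA and control, 0 of the 6 tested (limma, Benjamini-Hochberg over all 33586 probes), where 0.00893% of all probes were called. At an unadjusted p under 0.05 the count was 1 of 6, LYL1, against 7.43% of all probes. The replicate numbers were treated as pairs. A fit that used these numbers as a block called 0 of 6 where it called 2.74% of all probes. The lowest adjusted p among members was then 0.0971, for LYL1. At an unadjusted p under 0.05 the block gave 2 of 6, LYL1 and HOXA9, against 21.8% of all probes.

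The log2 difference was negative for 5 of the 6 members, with a median of -0.23, beside 50.5% negative and a median of 0 over all tested probes. RNA was measured in bulk, so fewer cells expressing a gene and less RNA per cell cannot be told apart. Each group also held the same column of the slide in every replicate, so array position and group cannot be told apart.

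Among the homeobox members, TLX1 had log2 values of 11.34, 11.31 and 11.31 with control siRNA. With siRNA1 its values were 11.16, 11.14 and 11.10, and with siRNA2 they were 10.99, 11.23 and 11.23. All 6 siRNA arrays lay below all 3 control arrays, which was so for 2.1% of all probes. The difference was small, -0.18 on the log2 scale (SE 0.11, 95% confidence interval -0.42 to 0.06), which is 88.5% of control. Its limma adjusted p was 0.755, and 0.275 with the block. An exact permutation test over the 84 splits of the 9 arrays gave p = 0.0238 (two-sided, smallest possible 0.0119). Within replicate numbers the exact permutation p was 0.0741 (27 arrangements, smallest possible 0.037). Both siRNAs gave nearly the same value, -0.18 and -0.17, and their difference of 0.02 had an interval of -0.26 to 0.29.

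HOXA9 had log2 values of 9.90, 9.40 and 9.74 with control siRNA, 9.44, 9.45 and 9.77 with siRNA1, and 8.97, 9.28 and 9.31 with siRNA2. The siRNA2 arrays were all below the lowest control, and the siRNA1 arrays overlapped the controls. With siRNA2 the log2 difference was -0.49 (95% confidence interval -0.87 to -0.11, adjusted p = 0.819 with limma and 0.11 with the block), and with siRNA1 it was -0.12 (-0.50 to 0.26). The siRNA2 value was below the siRNA1 value in 3 of 3 replicates, by 0.18 to 0.47 on the log2 scale. That difference of -0.37 had an interval of -0.75 to 0.01, with a limma adjusted p of 1 and 0.478 with the block.

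HOXA10 had log2 values of 14.07, 13.59 and 13.80 with control siRNA, 13.48, 13.21 and 13.41 with siRNA1, and 13.27, 13.78 and 14.05 with siRNA2. Here the siRNA1 arrays were all below the lowest control, and the siRNA2 arrays ran from below the lowest control to just under the highest. With siRNA1 the log2 difference was -0.46 (95% confidence interval -0.91 to 0.00, adjusted p = 0.838 with limma and 0.223 with the block), and with siRNA2 it was -0.12 (-0.58 to 0.34). The difference between the siRNAs was 0.33 (-0.12 to 0.79, limma adjusted p = 1). The HOXA genes thus had their lower values with different siRNAs, and neither difference between siRNAs was called. Over both siRNAs the values were -0.31 (SE 0.15) for HOXA9 and -0.29 (SE 0.18) for HOXA10. The exact permutation p over all splits was 0.167 for HOXA9 and 0.214 for HOXA10, and within replicate numbers it was 0.259 and 0.296. The differences over both siRNAs rested in good part on replicate 1. Without control replicate 1 these differences were -0.20 and -0.16, and without siRNA2 replicate 1 HOXA10 was at -0.18. With the block and without replicate 1 they were -0.11 and -0.08.

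Among the basic helix-loop-helix members, LYL1 had log2 values of 8.75, 8.34 and 8.20 with control siRNA, 8.22, 7.75 and 8.01 with siRNA1, and 8.18, 8.24 and 7.91 with siRNA2. Every siRNA array was below the control of its own replicate number, by 0.10 to 0.59 on the log2 scale, but the groups overlapped, since control replicate 3 lay below 2 of the siRNA arrays. With TLX1, 2 of the 6 members were below their own control in 6 of 6 arrays, which 11% of all probes were. The log2 difference of LYL1 was -0.38 (SE 0.16, 95% confidence interval -0.73 to -0.03), or 76.9% of control, and 2.71% of all tested probes had a lower value. Its limma adjusted p was 0.652. With the block the interval narrowed to -0.63 to -0.12 with an adjusted p of 0.0971, and over all alternatives the adjusted p ran from 0.0971 to 0.997. The exact permutation p was 0.0476 over all splits and 0.037 within replicate numbers, the smallest that this test can give. Without control replicate 1 the difference of LYL1 was -0.22. The single siRNAs gave -0.44 (siRNA1) and -0.32 (siRNA2), and their difference of 0.12 had an interval of -0.29 to 0.52.

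TAL2 had log2 values of 6.23, 6.03 and 5.87 with control siRNA, 6.09, 6.15 and 6.14 with siRNA1, and 6.39, 6.06 and 5.90 with siRNA2. It was the only tested member with a positive difference, 0.08 (95% confidence interval -0.22 to 0.38, limma adjusted p = 0.929), and the sign turned to -0.01 without control replicate 3. For the LIM-only adaptor LMO1, the log2 values were 5.13, 5.41 and 5.32 with control siRNA, 5.25, 5.26 and 5.26 with siRNA1, and 5.30, 5.0 and 5.46 with siRNA2. Its difference of -0.03 (95% confidence interval -0.32 to 0.25, limma adjusted p = 0.969) was within the spread between replicates, with 3 arrays lower and 3 higher than their own control. The exact permutation p over all splits was 0.512 for TAL2 and 0.786 for LMO1. Signals so near the background compress differences, so the intervals of TAL2 and LMO1 do not exclude a larger change in the RNA.

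**Figure D2:**
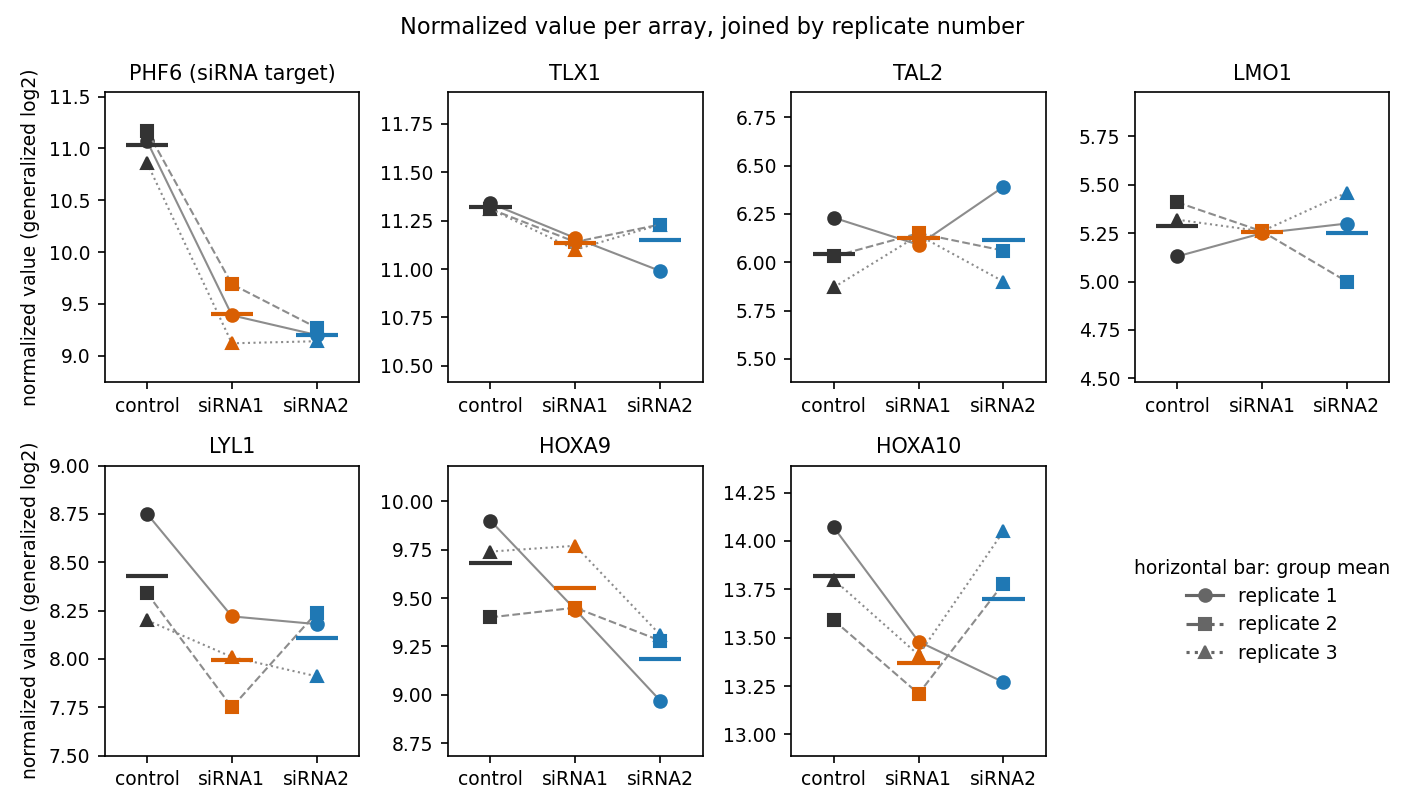
Normalized log2 value on each array for PHF6 and the 6 tested members, with lines joining arrays of the same replicate number and bars at the group means; the panels of the members share 1 span and the PHF6 panel has a wider one. All PHF6 siRNA arrays lie below the controls for TLX1, while LYL1, HOXA9 and HOXA10 overlap between groups and TAL2 and LMO1 lie around the controls.

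The single siRNAs were also set against the control and against each other. In each of these comparisons 0 of the 6 members were called, with or without the block. Among all probes 0.00893% were called with siRNA1, 0.0119% with siRNA2 and 0% between the siRNAs, and with the block 0.941%, 1.64% and 0.0387%. At an unadjusted p under 0.05 without the block, 1 of 6 members passed with siRNA1 (LYL1) and 1 of 6 with siRNA2 (HOXA9), against 5.97% and 5.93% of all probes. Between the siRNAs 0 of 6 passed, against 2.5%. The comparisons with control share the control arrays, and the median log2 difference of the members was -0.15 in both.

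**Figure D3:**
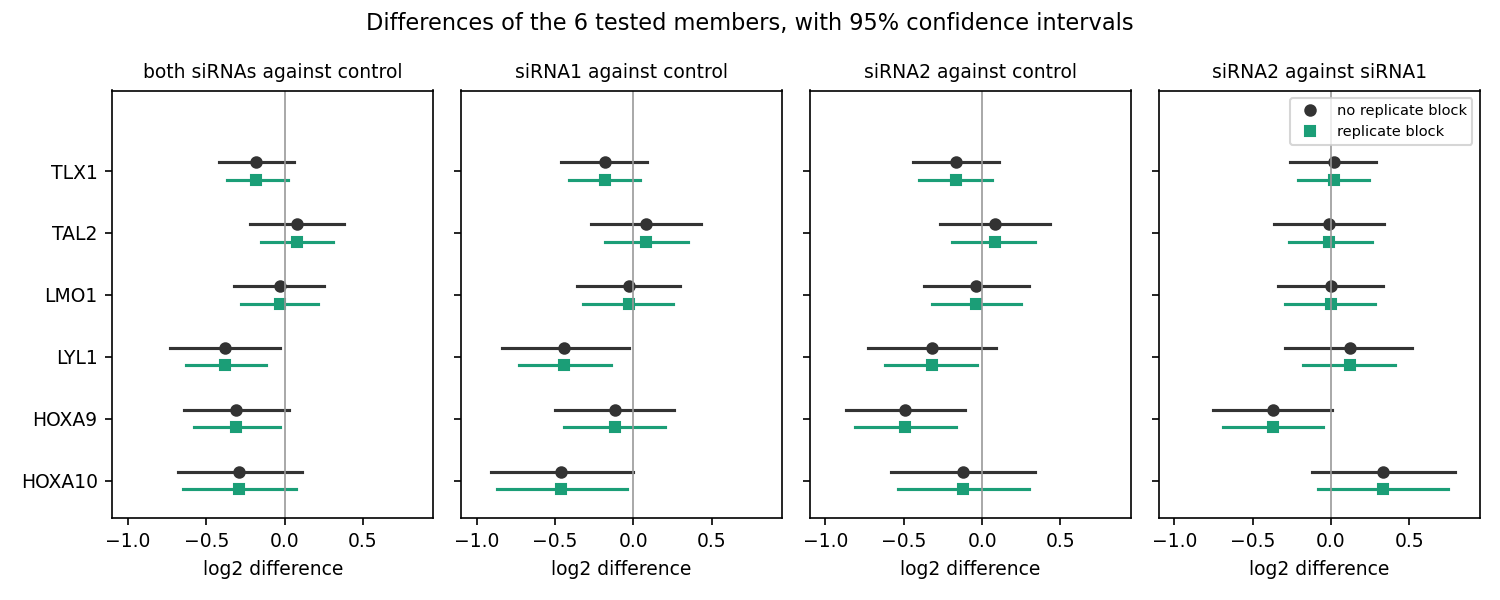
Log2 difference of the 6 tested members in the 4 comparisons, as points with 95% confidence intervals from limma, without (circles) and with (squares) the replicate number as a block. The intervals of TLX1, TAL2 and LMO1 include 0 in all panels, and those of LYL1 for both siRNAs and for siRNA1 and of HOXA9 for siRNA2 do not in either fit.

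Between replicate numbers 35.4% of all probes differed at an adjusted p under 0.05 (limma F test), against 0 of the 6 members, of which LYL1 had the lowest adjusted p, 0.121. LYL1 averaged 8.38, 8.11 and 8.04 in replicates 1, 2 and 3, a spread of 0.34. TLX1 was the steadiest, with replicate means within 0.06 of each other (adjusted p = 0.84). The lowest unadjusted p of a member in this limma F test was 0.0629, for LYL1. Each replicate number held its own row of a slide, so replicate and array position cannot be told apart.

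After the replicate means were subtracted, TLX1 varied with HOXA10 (r = 0.84) and LYL1 (r = 0.81) over the 9 arrays, and LYL1 with HOXA10 (r = 0.71). HOXA9 and HOXA10, neighbours in the HOXA cluster, had r = 0.28. TLX1 and TAL2 had r = -0.69. These correlations include the difference between groups, and the points share the same arrays, so they are descriptive. By the same measure the named genes most like TLX1 were LHX3, ALDH6A1 and TGFA (r = 0.987 to 0.985), and those most like LYL1 were KPTN, RBBP9 and SSRP1 (r = 0.991 to 0.986). For HOXA9 they were SLC6A10P, MAFA and FEZF1-AS1 (r = 0.991 to 0.988) and for HOXA10 GLB1L, KLHDC3 and ZNF581 (r = 0.983 to 0.962). TAL2 was most like KRT83, ENTPD5 and OR4F29 (r = 0.952 to 0.926), and LMO1 most like CKAP2, PTGIR and CCP110 (r = 0.981 to 0.971). These genes were picked as the highest among all genes, so their values carry no test.

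The members belong to larger programs, and 6 lists of companion genes were described in the same way, each gene by its brightest tested probe. Over all 14680 genes the median log2 difference was -0.04, and 2.37% were called with the block. Of 26 neighbours of the HOXA cluster and HOX cofactors, 14 were measured, with a median of -0.01. None was called without the block (0 of 14), and 2 were higher with it. These were PBX4, a TALE homeobox cofactor of HOX proteins (0.46, adjusted p = 0.0319 with the limma block, 0.644 without), and KMT2A, a histone methyltransferase that maintains HOXA expression (0.41, adjusted p = 0.045 with the limma block, 0.643 without). Both were higher than their own control in 6 of 6 arrays, which 10.6% of all probes were.

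Both calls were lost when any replicate number was left out, which leaves fewer arrays. The differences of the called probes stayed about as large. The log2 difference of PBX4 was 0.45, 0.52 and 0.41 without replicate 1, 2 or 3, and that of KMT2A was 0.38, 0.47 and 0.39. The adjusted p of PBX4 with the limma block was 0.242, 0.106 and 0.119 without replicate 1, 2 or 3, and that of KMT2A was 0.292, 0.125 and 0.137. KMT2A had 4 probes, all positive at 0.26 to 0.41. The 3 that were not called had adjusted p values of 0.0912 to 0.238 with the limma block. Their differences were 0.08, 0.16 and 0.22 without replicate 2, and 0.32 to 0.49 without replicate 1 or 3. EVX1, a homeobox gene beside the HOXA cluster, had a difference of -0.57 and was lower in 6 of 6 arrays (limma adjusted p = 0.643, 0.0735 with the block).

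Within the cluster, signal was not uniform. HOXA3, HOXA4, HOXA5 and HOXA7 were well above background on all 9 arrays, with log2 differences of 0.04, -0.01, -0.02 and -0.15. HOXA13, at the end of the cluster, was on 0 arrays, HOXA11 on 1 and HOXA2 on 5. MEIS1, a cofactor that binds DNA with HOX proteins, was also well above background on 0 arrays.

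Among 22 partners of the TAL1 complex, 17 were measured, 0 were called with or without the block, and the median was -0.06. Largest in size were ID3 (-0.33), an inhibitor of E proteins, FLI1 (-0.25), an ETS factor, and RUNX1 (0.22). GATA1, GATA2, ERG and LMO3 were well above background on 0 arrays. Of 10 genes known as targets of the TAL1 complex, 6 were measured and 0 called, with a median of 0.13. Among these were ARID5B, at 0.39, and TRIB2, at -0.34, and ALDH1A2, HHEX, KIT and HPSE were on 0 arrays.

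All 21 genes on the list of TLX1 partners and targets were measured, with a median of -0.05. The list also held PHF6, NUP214 and ABL1, for which no such relation to TLX1 was shown. PHF6, the siRNA target, was the only call with and without the block. NOTCH1, the receptor gene mutated in most T-ALL, had a log2 difference of -0.44 (limma adjusted p = 0.616, 0.0534 with the block), and MYC, its target, -0.30. NUP214 and ABL1, which are fused and amplified in this line, were at -0.04 and 0.

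The list of other transcription factor oncogenes of T-ALL had 22 genes, not all of them transcription factors or oncogenes. Some also stood on the lists above. Of the 22 genes, 14 were measured and 0 called, with a median of -0.03. The largest differences were those of TLX2 (0.30), MYC (-0.30), NKX2-5 (-0.22) and RUNX1 (0.22). NKX2-5, a homeobox gene activated by translocation in rare T-ALL, was well above background on all 9 arrays, with a control log2 value of 16.44. It had 1 probe, and whether that probe read other transcripts was not tested. NKX2-1, NKX2-2, OLIG2, BHLHE22, LMO3, HHEX and MYCN were on 0 arrays. Of 19 markers of early T cell precursors, the state marked by LYL1 and MEF2C, 8 were measured and 0 called, with a median of 0.11. IL3RA (0.22), BCL2 (0.15), CD44 (0.13) and SPI1 (0.13) led that list, and 9 of its genes were on 0 arrays.

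**Figure D4:**
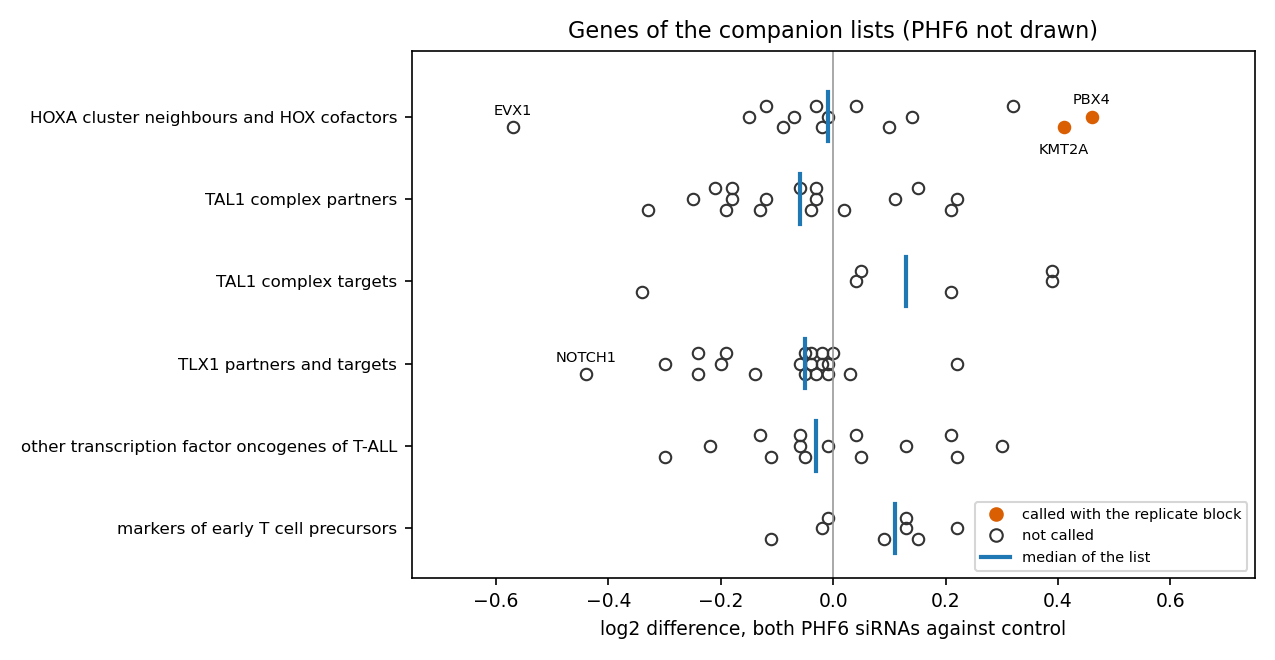
Log2 difference, both PHF6 siRNAs against control, of each measured gene on the 6 companion lists, with the list median as a bar; PHF6 is left out because it would stretch the axis, and genes on several lists appear in each. Filled points are PBX4 and KMT2A, called with the replicate block, and the list medians lie between -0.06 and 0.13.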

How the data were processed

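The study's 9 arrays were custom Agilent arrays scanned by the authors with Feature Extraction (10.5.1.1 in the file headers, 9.1 in the submitters' processing notes). The deposited scanner files hold spot intensity, and the deposited value table holds the authors' log2 values after variance stabilisation (VSN). VSN was coded anew and fitted to the median spot intensity without background subtraction. Outlier spots were dropped before the repeated spots of a probe were averaged. Agreement with the deposited log2 values was r = 0.9936 to 0.9989 per array. VSN gives a generalized log2, which understates changes near the background.

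Probes were named from their transcript names through RefSeq (25729 probes with a symbol). A probe counted as well above background on an array when at least 50% of its spots carried the scanner's flag, and 3 such arrays were needed for a test. limma 3.58.1 in R 4.3.3 was fitted over all groups, without a block, with Benjamini-Hochberg adjustment over all tested probes. The fitting code was tested on simulated data. The deviations of samples with the same replicate number from their group means correlated at 0.31 to 0.74 (9 pairs), against -0.57 to 0.13 for other pairs (18 pairs), so the numbers, taken from the sample titles, were treated as pairs and the blocked fit is given where it matters. Replicates 1 and 2 of every group lay on different rows of the same slide, and replicate 3 lay on a second slide. The number of arrays limits the precision.

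The members and gene lists were chosen with earlier results of these data known. The genes named besides the members were PHF6, from each list those called in either fit and the 3 largest in size (ties included), and the 3 most correlated named genes per member. Genes named as not above background, HOXA3 to HOXA7, CD1A, RAG1, NUP214 and ABL1 were chosen after their values were seen. A few genes of the companion lists are not reported here by name.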

Additional observations from a re-analysis of the deposited data

How the results depend on the processing

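The number of member probes called stayed 0 in all 4 comparisons under every alternative run: other normalizations and filters, the deposited log2 values, outlier spots kept, a replicate or slide block, a trended robust fit, only the arrays compared, and each array left out. For both siRNAs, 22 alternatives gave differences of -0.26 to -0.12 for TLX1, -0.50 to -0.22 for LYL1, -0.45 to -0.11 for HOXA9 and -0.40 to -0.08 for HOXA10. LMO1 turned positive in the deposited log2 values (0.04), without control replicate 2 (0.03), without siRNA2 replicate 2 (0.03) and with the replicate block without replicate 2 (0.09). TAL2 ran from -0.01 without control replicate 3 to 0.17 without control replicate 1. PHF6 kept its size with VSN on the processed signal, -1.84, but its adjusted p was then 0.0585. The count of members differing between replicate numbers went from 0 to 1 with VSN on the processed signal (LYL1, adjusted p = 0.0406), with no filter (LMO2, adjusted p = 0.0253), and in the range of 0 to 1 over single arrays left out, with the 1 without siRNA2 replicate 2 (LYL1, adjusted p = 0.0445). The cause of these changes was not tested.

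The replicate block raised the count for all probes from 3 to 920 (619 higher, 301 lower), that for the HOXA neighbours and cofactors from 0 to 2, and that for the T lymphoblast markers from 0 to 2 (CD7 and PTCRA, both lower). It changed no call among the members or the other lists. The blocked count over all probes was 45, 5 and 654 without replicate 1, 2 or 3, and a slide block gave 18. For the 6 member probes removed by the filter, a fit without it gave adjusted p values of 0.868 to 0.996. Signals near the background limit what can be said of TAL2 and LMO1.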
